A study of Mus musculus with 12 samples.

Results

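The NF-kB subunits, inhibitors and target genes described here were read from the 14 probe sets annotated with a single symbol from a list of 10 genes, out of 22626 probe sets tested. They covered 9 of the 10 genes: the subunits Rela, Relb and Nfkb2, the inhibitors and regulators Nfkbia, Nfkbie, Nfkbiz, Bcl3 and Tnfaip3, and the target Icam1. No probe set carried the symbol Nfkb1, which was not analysed here. Nfkbia had 4 probe sets, Nfkb2 and Nfkbiz had 2 each and the other 6 genes had 1, and where a gene had several, the one brightest on average stands for it below.

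NF-kB is a family of dimeric transcription factors held in the cytoplasm by IkB proteins. Signals from tumour necrosis factor, interleukin 1 or Toll-like receptors activate a kinase complex that marks IkB for destruction, and the dimers then enter the nucleus and switch on inflammatory genes together with their own inhibitors, which ends the response. In liver the pathway is active in hepatocytes, Kupffer cells and endothelium, where it is known for protecting hepatocytes from death by tumour necrosis factor and for inducing adhesion molecules and chemokines.

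Liver RNA came from 12 C57Bl/6J mice aged 6 to 8 weeks, with 1 Affymetrix array per animal and 3 animals in each of 4 groups. The groups were wild-type and Aag knock-out mice, each either untreated (labelled control) or 6 hours after 1 intraperitoneal injection of methyl methanesulfonate (MMS), a DNA-methylating agent, at 75 mg/kg. Aag, also named Mpg, encodes the glycosylase that removes methylated bases; how the knock-out was made is not stated in the labels. The labels do not say whether controls were injected. The study asked how alkylation changes liver gene expression when this repair enzyme is missing.

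Array medians of the deposited log2 values lay between 7.42 and 7.75. The 8 measured hepatocyte markers of 9 listed had means of 11.57 to 14.64, with all 8 among the brighter probe sets of the arrays. At the dimmer of its 2 probe sets, Mpg lay at 5.33 ± 0.34 and 5.47 ± 0.24 in untreated and treated knock-out liver and at 6.43 ± 0.20 and 6.72 ± 0.28 in wild type (SD, n = 3 each). At the brighter one it overlapped between genotypes, with differences of -0.31 ± 0.19 without MMS (adjusted p = 0.804 in limma) and -0.32 ± 0.19 after it (adjusted p = 0.400). Which part of the gene was deleted, and so which probe set checks the labels, is not stated in the labels. MMS-treated knock-out array 3 was closest to an untreated wild-type array (r = 0.989), and untreated knock-out array 3 to that treated knock-out array (r = 0.987). Treated wild-type array 1 was closest to untreated knock-out array 2 (r = 0.989). The 5' minus 3' signal of the array's actin and Gapdh controls, a measure of RNA integrity, was -2.41 to -2.27 in untreated and -2.61 to -2.001 in treated wild-type liver. It was -2.66 to -2.33 in untreated knock-out liver, and -1.61, -1.51 and -2.46 in treated knock-out arrays 1, 2 and 3. Dbp, a clock output gene, was 8.14 to 8.58 in untreated and 12.49 to 12.77 in treated wild-type liver. In untreated and treated knock-out liver it was 10.64 to 13.04 and 12.16 to 12.83. Time of day and treatment thus cannot be told apart for any MMS difference below. The untreated genotypes did not overlap at Dbp either. Time of day and genotype thus cannot be told apart in the comparison without MMS or in the difference of responses.

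In wild-type liver 2 of the 9 genes rose after MMS, Icam1 by 2.74-fold and Bcl3 by 2.21-fold, none fell and 7 were not called. The test was limma over all probe sets with Benjamini-Hochberg adjusted p under 0.05, which called 6.44% of all probe sets, 1.99% higher and 4.45% lower. At an unadjusted p of 0.05 3 of the 9 passed, against 23.2% of all probe sets. All 9 differences were positive (Nfkb2 turned negative with array weights), with a median of 0.36 on the log2 scale against -0.05 for all probe sets, and 6 of the 9 had every treated array above every untreated one, as had 11.3% of all probe sets. In knock-out liver none of the 9 was called in limma, 1 passed at an unadjusted p of 0.05 (24.8% of all probe sets), and 6 were positive (median 0.02, against -0.06 for all probe sets). There 1.51% of probe sets were called, and 1 of the 9 genes had treated arrays all above untreated ones, as had 12.9% of all probe sets. The 2 genotypes use different animals in these comparisons, and the difference of the responses was tested separately, below.

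**Figure D1:**
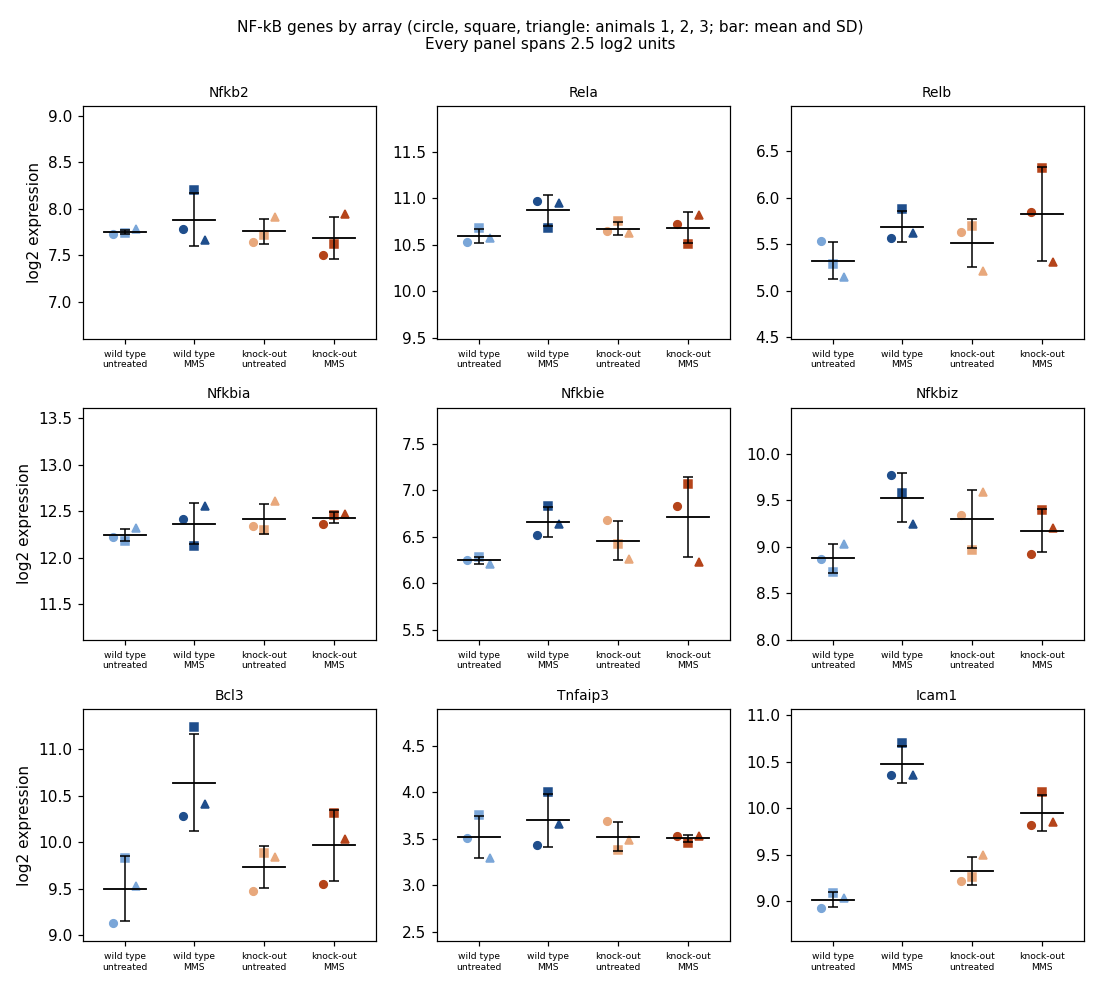
Log2 expression (vertical axis) of the 9 NF-kB genes in each of 12 arrays, by group (horizontal axis), with bars for the mean and SD of 3 animals. In Icam1 the 4 groups do not overlap, with means from 9.02 to 10.47, while Nfkbia and Tnfaip3 overlap in every comparison shown.

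Among the subunits, Rela, which carries the main transactivation domain, was at 10.53, 10.68 and 10.57 in untreated and 10.97, 10.68 and 10.95 in treated wild-type liver. The treated values lay above the untreated ones, by a margin that 2 decimals do not show at animal 2. The log2 difference was 0.28 ± 0.13 (standard error of the fit, adjusted p = 0.223 in limma). In knock-out liver Rela was 10.65, 10.75 and 10.62 without and 10.72, 10.51 and 10.82 with MMS, which overlap (0.011 ± 0.13). Its sign there turned under quantile normalization (-0.075) and median centring (-0.055).

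Relb, the subunit of the slower non-canonical pathway, stood at 5.54, 5.28 and 5.15 in untreated and 5.56, 5.88 and 5.62 in treated wild-type liver. The treated arrays were higher, but the difference of 0.36 ± 0.23 was not called (adjusted p = 0.385 in limma). Treated knock-out arrays had 5.84, 6.31 and 5.31 against 5.63, 5.69 and 5.22 untreated, with both arrays numbered 3 lowest in their group. The difference there was 0.31 ± 0.23, and -0.076 with the 5' to 3' signal as a covariate.

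Nfkb2, which encodes the precursor that partners Relb, had values of 7.73 to 7.78 in untreated and 7.67 to 8.20 in treated wild-type liver, and of 7.65 to 7.91 and 7.50 to 7.94 in knock-out liver. The groups overlap in both genotypes, with differences of 0.13 ± 0.16 and -0.071 ± 0.16. The other Nfkb2 probe set went lower in wild type, from 6.88 to 7.30 without MMS to 6.71 to 6.81 with it (-0.33 ± 0.24, adjusted p = 0.444 in limma), so the 2 probe sets had opposite signs and neither was called.

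RefSeq promoter windows (GRCm38.p6), 250 bases before to 50 after an annotated start, were found for 7 of the 9 genes (3 windows for Nfkb2, 2 for Tnfaip3 and 1 for each other gene) and were searched for DNA letters bound by NF-kB dimers. The sequences below are shown because these genes are regulated by NF-kB in the textbook feedback loop and differ in what their transcripts did here. The letters searched on both strands were the kappaB decamer consensus and GGAAATTCC, a variant picked with the Icam1 promoter in view. The decamer stands in 8.46% of all 32851 windows and in 7 of the 10 windows of these genes, from Nfkb2, Nfkbia, Nfkbie, Bcl3 and Tnfaip3. In 1 of the Tnfaip3 windows neither set of letters was found. GGAAATTCC stands in 0.317% of all windows and in 3 of the 10, from Icam1, Nfkbia and Tnfaip3, and in Nfkbia it overlaps the decamer. Capitals mark either match, positions count from the start, and each line runs 5' to 3' on the gene's strand.
Icam1, chr9:21015690-21015939, plus strand, bases -250 to -1: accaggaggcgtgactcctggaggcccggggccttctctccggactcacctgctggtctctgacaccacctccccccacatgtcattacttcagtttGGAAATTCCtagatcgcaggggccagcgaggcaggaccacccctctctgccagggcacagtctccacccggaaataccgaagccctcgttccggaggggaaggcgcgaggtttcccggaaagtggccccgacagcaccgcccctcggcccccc
Nfkbia, chr12:55492648-55492707, minus strand, bases -60 to -1: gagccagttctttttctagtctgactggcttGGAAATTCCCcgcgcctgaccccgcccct
Tnfaip3, chr10:19015411-19015470, minus strand, bases -60 to -1: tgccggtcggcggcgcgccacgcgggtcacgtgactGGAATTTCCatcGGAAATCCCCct
Nfkbie, chr17:45555580-45555639, plus strand, bases -120 to -61: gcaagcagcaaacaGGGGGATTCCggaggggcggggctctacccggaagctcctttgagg
Nfkb2, chr19:46304677-46304736, plus strand, bases -60 to -1: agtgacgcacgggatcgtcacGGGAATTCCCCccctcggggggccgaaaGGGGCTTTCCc
Bcl3, chr7:19822736-19822755, minus strand, bases 1 to 20: agGGGAAGTCCCgctgcccg
In Icam1 the match begins at -153, in Nfkbia at -29 and in Tnfaip3 at -24. The Bcl3 match lies at bases 3 to 12 after the start, inside the transcribed part. The Rela window held neither set of letters. A match is a description of letters and was not tied to binding in these livers. Among the 3 genes that share GGAAATTCC, Icam1 rose and Nfkbia and Tnfaip3 were not called.

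Nfkbia, the IkB protein that NF-kB induces first and that ends the response, was near the top of the scale, with values of 12.13 to 12.61 on all 12 arrays. In wild type it had 12.23, 12.19 and 12.32 without and 12.42, 12.13 and 12.56 with MMS, which overlap (0.12 ± 0.14, adjusted p = 0.626 in limma). In knock-out liver it had 12.34, 12.31 and 12.61 without and 12.37, 12.46 and 12.47 with MMS (0.016 ± 0.14, and -0.049 after median centring). Another pair of its probe sets stood at 0.13 ± 0.15 and -0.0064 ± 0.22 in wild type, with overlap. The fourth, the only one with a RefSeq transcript accession in the platform annotation, differed: treated knock-out arrays read 9.07, 9.59 and 8.80 against 8.14, 7.91 and 8.94 untreated. Its groups overlap through untreated array 3, and the difference of 0.82 ± 0.28 (1.77-fold) was not called (adjusted p = 0.110 in limma). The treated arrays 1 and 2, highest at this probe set, also had the highest 5' to 3' signal of all arrays, whose part in this value was not tested. In wild-type liver the same probe set stood at 0.19 ± 0.28.

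Nfkbie, another cytoplasmic IkB, was 6.25, 6.28 and 6.21 in untreated and 6.51, 6.83 and 6.64 in treated wild-type liver. All treated arrays were higher, by 0.42 ± 0.20 (adjusted p = 0.241 in limma). In knock-out liver it was 6.68, 6.42 and 6.26 without and 6.83, 7.07 and 6.23 with MMS, which overlap through array 3 (0.25 ± 0.20, and -0.15 with the 5' to 3' signal as covariate). Nfkbie and Relb followed each other over the 12 arrays (Pearson r = 0.921, and 0.885 after subtracting group means), the closest of the 36 member pairs; these arrays share the same RNA quality differences.

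Nfkbiz, a nuclear IkB that helps NF-kB switch on secondary genes, was 8.87, 8.72 and 9.03 in untreated and 9.77, 9.57 and 9.24 in treated wild-type liver. The treated arrays were all higher, and the difference of 0.65 ± 0.20 (1.57-fold) missed the threshold as deposited (adjusted p = 0.0733 in limma). It passed after quantile normalization (0.75, adjusted p = 0.0418) and median centring (0.85, adjusted p = 0.0219), which shift the median of all probe sets in this comparison from -0.05 to 0.02 and 0.14. Nfkbiz also passed as the mean of its 2 probe sets (0.62, adjusted p = 0.0167 in limma) and barely with array weights (0.50, adjusted p = 0.04999). In knock-out liver the values overlap, 9.34, 8.96 and 9.58 without and 8.92, 9.39 and 9.20 with MMS (-0.13 ± 0.20). The other Nfkbiz probe set, dimmer at 4.87 to 6.21, was higher after MMS in both genotypes with no overlap, by 0.59 ± 0.17 in wild type (adjusted p = 0.0691 in limma) and 0.53 ± 0.17 in knock-out (adjusted p = 0.104). Averaged over genotypes this second probe set rose by 0.56 ± 0.12 (adjusted p = 0.0170 in limma, where 11.3% of probe sets were called), whereas the brighter one stood at 0.26 ± 0.14. In knock-out liver the 2 probe sets thus had opposite signs.

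**Figure D2:**
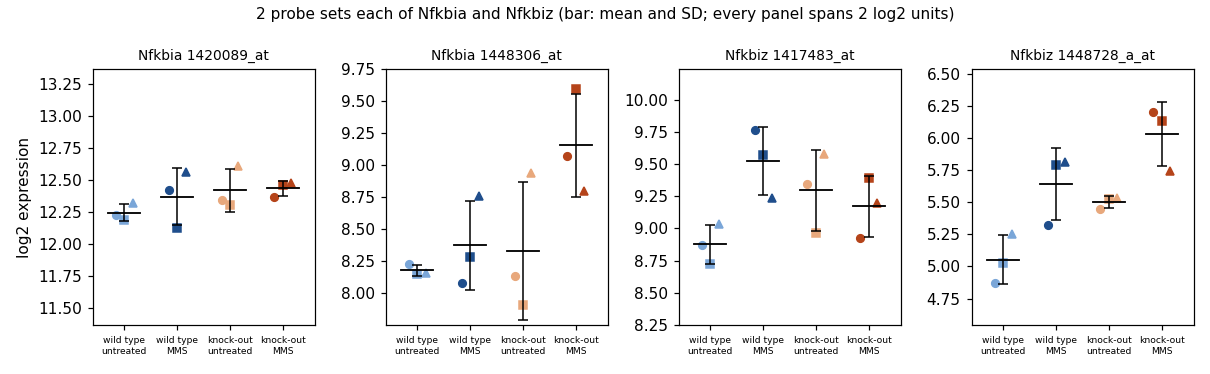
Log2 expression of 2 probe sets each of Nfkbia and Nfkbiz by group, with the mean and SD of 3 animals. In treated knock-out liver the second probe set of each gene lies above its untreated mean (9.15 against 8.33 for Nfkbia, 6.03 against 5.50 for Nfkbiz), while the first does not separate from it.

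Bcl3, a nuclear IkB that joins the p50 and p52 subunits on DNA, was 9.14, 9.83 and 9.54 in untreated and 10.28, 11.24 and 10.41 in treated wild-type liver. The lowest treated array lay above the highest untreated one, and array 2 was highest in both groups. Bcl3 rose by 1.14 ± 0.28 (2.21-fold, adjusted p = 0.0395 in limma). It no longer passed without untreated wild-type array 1 (adjusted p = 0.152) or 3 (0.113), treated wild-type array 2 (0.105) or 3 (0.0634), or untreated knock-out array 2 (0.0554), and it was kept in 7 of the 12 fits that leave out 1 array. In knock-out liver Bcl3 was 9.48, 9.89 and 9.84 without and 9.55, 10.31 and 10.03 with MMS, with overlap (0.23 ± 0.28, adjusted p = 0.631).

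Tnfaip3, also named A20, a ubiquitin-editing enzyme that shuts off the signal upstream of the kinase, was among the dimmest probe sets on the array (mean 3.56, at the 2.09th percentile). It was 3.509, 3.751 and 3.291 in untreated and 3.432, 3.998 and 3.657 in treated wild-type liver. The groups overlap (0.18 ± 0.17), as they do in knock-out liver, where all 6 values lay between 3.38 and 3.69 (-0.017 ± 0.17). With no detection call in the table, a change at this level may lie below what the probe set can show.

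Icam1 encodes the adhesion molecule on endothelium and other cells to which leukocyte integrins bind, and lies at chr9:21015940-21028814. It was 8.93, 9.09 and 9.03 in untreated and 10.35, 10.71 and 10.36 in treated wild-type liver. Knock-out liver had 9.21, 9.27 and 9.50 without and 9.82, 10.17 and 9.85 with MMS. Ordered by mean, the groups ran from untreated wild type (9.02 ± 0.08) through untreated knock-out (9.33 ± 0.15) and treated knock-out (9.95 ± 0.19) to treated wild type (10.47 ± 0.20; SD, n = 3 each), and no 2 neighbours overlap. In wild type the rise was 1.45 ± 0.15 (95% interval 1.13 to 1.78, adjusted p = 0.00195 in limma), the 9th smallest p of all probe sets. It was called in each of the 12 fits that leave out 1 array, at 1.34 or more, and at 1.54 and 1.65 after quantile normalization and median centring.

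In knock-out liver Icam1 stood 0.62 ± 0.15 higher after MMS (1.54-fold), just outside the threshold (adjusted p = 0.0566 in limma). It came inside without treated knock-out array 3 (0.0270), untreated knock-out array 3 (0.0446) or treated wild-type array 2 (0.0429), and without both knock-out arrays numbered 3 (0.76, adjusted p = 0.0253). With the 5' to 3' signal as covariate it was 0.40 (adjusted p = 0.454). Averaged over genotypes Icam1 rose by 1.04 ± 0.10 (2.05-fold, adjusted p = 0.000941).

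**Figure D3:**
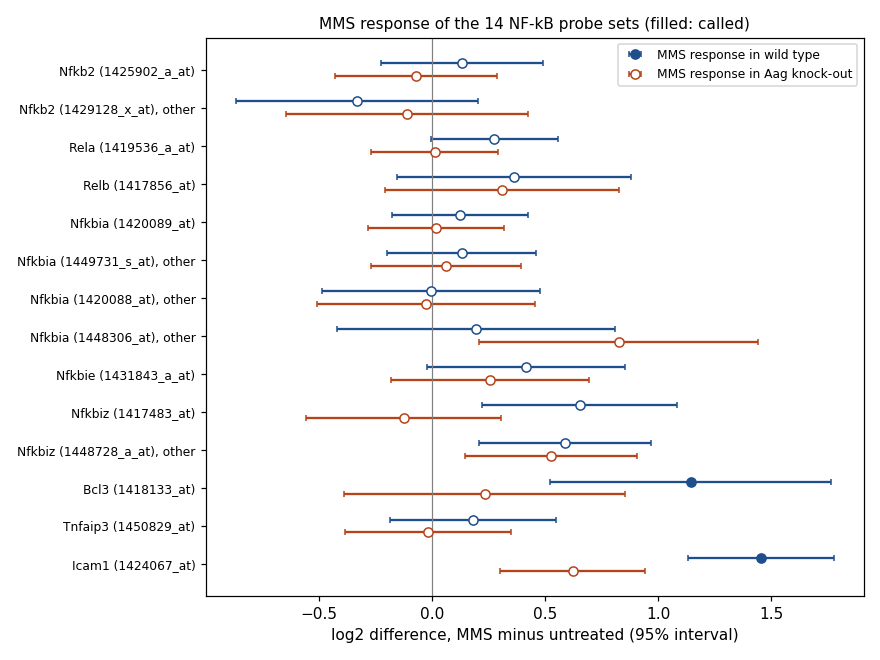
Log2 difference between MMS-treated and untreated liver (horizontal axis, with 95% intervals) for the 14 NF-kB probe sets in wild type and Aag knock-out, filled where limma called it. Only Icam1 and Bcl3 in wild type are filled, and the knock-out interval of Icam1 (0.30 to 0.94) lies above 0.

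The difference of the responses between genotypes was negative in all 9 genes, that is, less positive in knock-out liver (Relb turned positive, 0.12, after quantile normalization), with a median of -0.20 against 0.05 for all probe sets. None passed in limma, as none of the 22626 probe sets did (0%), while 3 of the 9 genes had an unadjusted p under 0.05 against 17.7% of all probe sets. These were Icam1 (-0.83 ± 0.21, adjusted p = 0.131), Bcl3 (-0.91 ± 0.40, adjusted p = 0.268) and Nfkbiz (-0.78 ± 0.28, adjusted p = 0.205). The other probe set of Nfkbiz gave -0.063 ± 0.24, and the Nfkbia probe set with the RefSeq accession gave a positive value, 0.63 ± 0.40. Median centring moved the median of all probe sets in this comparison from 0.05 to -0.21. A lesser response of the 9 genes in knock-out liver was not shown by these tests.

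Without treatment all 9 genes were nominally higher in knock-out than in wild-type liver, by 0.0020 to 0.42 (Nfkb2 and Tnfaip3 turned negative with array weights), and none was called in limma (0.0398% of all probe sets called), nor did any pass at an unadjusted p of 0.05 (7.16% of all). At the probe sets that stand for the genes, only Icam1 had untreated groups without overlap (0.31 ± 0.15, adjusted p = 0.707 in limma). Of all probe sets 7.52% were higher in this way. Among all 14 NF-kB probe sets 3 were, 13 were positive, and 1 passed at an unadjusted p of 0.05. That 1 was the dimmer Nfkbiz probe set, higher without overlap (0.45 ± 0.17, adjusted p = 0.594 in limma). Another Nfkbia probe set was also higher without overlap (0.24 ± 0.22, adjusted p = 0.893 in limma). After MMS 6 of the 9 were lower in knock-out liver and none was called in limma, with 2 at an unadjusted p under 0.05 (of all probe sets 0.0177% were called and 18.4% passed unadjusted). Over all 14 NF-kB probe sets 6 were lower and 8 higher, with 4 at an unadjusted p under 0.05. These 4 include the Nfkbia probe set with the RefSeq accession, higher in knock-out liver (0.78 ± 0.28, adjusted p = 0.196 in limma). They also include the dimmer Nfkbiz probe set, higher too (0.39 ± 0.17, adjusted p = 0.266 in limma), whereas the brighter one stood at -0.36 ± 0.20. Treated knock-out liver had less Icam1 than treated wild-type liver on every array (-0.53 ± 0.15, adjusted p = 0.135), and 7.71% of all probe sets were lower without overlap. Bcl3 was -0.68 ± 0.28 there, with overlap (adjusted p = 0.242).

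Of 84 further genes listed for the pathway 72 were measured. In wild-type liver 6 rose, 1 fell and 65 were not called, with a median of 0.075 against -0.064 over all genes. In knock-out liver 1 fell and 71 were not called, with a median of 0.046. Of all probe sets 1.99% were called higher and 4.45% lower in wild type, and 1.51% either way in knock-out. The same shares apply to the counts of the single lists below. Without single arrays of the wild-type groups the wild-type counts dropped to between 1 and 5 higher and 0 lower, the fewest without untreated array 1.

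The signalling ligands were not called in either genotype, with 0 of 8 in both. Tnf, the cytokine that starts the canonical pathway, stood at 0.61 ± 0.21 in wild type (adjusted p = 0.112 in limma) and at -0.55 ± 0.21 in knock-out (adjusted p = 0.143). Among 18 measured receptors and adaptors 2 rose in wild type and none in knock-out. Tnfrsf1a, the main receptor for tumour necrosis factor, was 10.26, 10.28 and 10.25 in untreated and 11.07, 11.15 and 11.15 in treated wild-type liver. It rose by 0.86 ± 0.15 (1.82-fold, adjusted p = 0.0117) and kept its call in 11 of 12 fits that leave out 1 array, losing it without untreated wild-type array 1. Knock-out liver had 10.42, 10.21 and 10.47 without and 10.79, 11.18 and 10.56 with MMS, again all higher, but not called (0.48 ± 0.15, adjusted p = 0.0960).

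Myd88, the adaptor of Toll-like and interleukin 1 receptors, rose by 0.78 ± 0.15 in wild type (1.72-fold, adjusted p = 0.0170 in limma), and its call was lost without untreated array 1 or treated array 2 of that genotype. In knock-out liver it was 0.39 ± 0.15 (adjusted p = 0.150), with no overlap. Of 9 measured genes of the kinase list none was called in either genotype at its brightest probe set, but averaged over genotypes Ikbkg, the scaffold of the kinase complex, rose by 0.43 ± 0.09 (adjusted p = 0.0131). Of its 3 other probe sets none was called in that average and 1 had the opposite sign (-0.089 ± 0.19), while another, not the brightest, rose in wild type with no overlap (0.66 ± 0.16, adjusted p = 0.0343) and stood at 0.061 ± 0.16 in knock-out. In the same average the lymphotoxin receptor Ltbr rose by 0.78 ± 0.21 (adjusted p = 0.0400 in limma) and Tnip2, a partner of A20, by 0.78 ± 0.21 (adjusted p = 0.0356). Of the 72 genes 8 rose and 3 fell in that average, where 11.3% of all probe sets were called either way. The 72 split into 36 positive and 36 negative, with a median of -0.0020, and the 3 that fell were among the other targets. Rel and Nfkbib, the other Rel and IkB proteins measured, were not called (-0.29 ± 0.17 and 0.47 ± 0.21 in wild type).

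Among 28 other measured targets 4 rose and 1 fell in wild-type liver. Cxcl1, a chemokine that attracts neutrophils, was 8.01, 7.21 and 7.32 in untreated and 11.60, 11.96 and 10.86 in treated wild-type liver. It rose by 3.96 ± 0.86 (adjusted p = 0.0242 in limma), and in treated knock-out liver it was high on array 2 alone (8.19, 12.22 and 8.68). Also risen were Lcn2, an iron-sequestering protein (1.89 ± 0.49), Saa3, a serum amyloid (1.16 ± 0.29), and Csf1, a macrophage growth factor (0.72 ± 0.14). The 3 other probe sets of Csf1 stood between -0.09 and 0.20 and were not called. Tnfaip2 fell by 0.79 on the log2 scale (adjusted p = 0.0341), and was not called after quantile normalization or median centring. Of the 12 fits that leave out 1 array, Cxcl1 kept its call in 7, Lcn2 and Saa3 in 4 each, Csf1 in 10 and Tnfaip2 in 6. In knock-out liver the chemokine Ccl20, dim at a mean of 5.27 (18.5th percentile), fell by 0.69 on the log2 scale (adjusted p = 0.0453 in limma). That call was lost after quantile normalization, with the 5' to 3' covariate and in 9 of 12 fits that leave out 1 array.

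**Figure D4:**
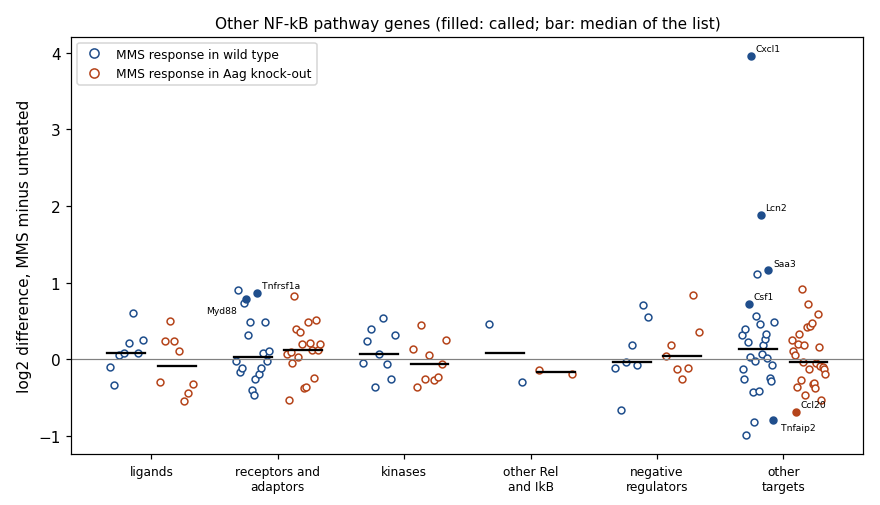
Log2 difference between treated and untreated liver (vertical axis) of the 72 other pathway genes, grouped by role (horizontal axis), in wild type and knock-out, with bars for list medians and filled points for genes called by limma. The called genes are Tnfrsf1a, Myd88, Cxcl1, Lcn2, Saa3, Csf1 and Tnfaip2 in wild type and Ccl20 in knock-out.

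The genes most like Icam1 over the 12 arrays, among 12393 genes, were Myd88 (Pearson r = 0.962, Spearman rho = 0.930), Tnfrsf1a (0.951 and 0.874) and S100a8, a calgranulin of neutrophils (0.946 and 0.888). For Bcl3 they were Lrrc23 (0.903 and 0.811), Pik3ap1 (0.888 and 0.783) and Myd88 (0.886 and 0.902). These correlations describe 12 arrays in 4 groups that differ in treatment, were picked as the highest, and carry no test.

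**Figure D5:**
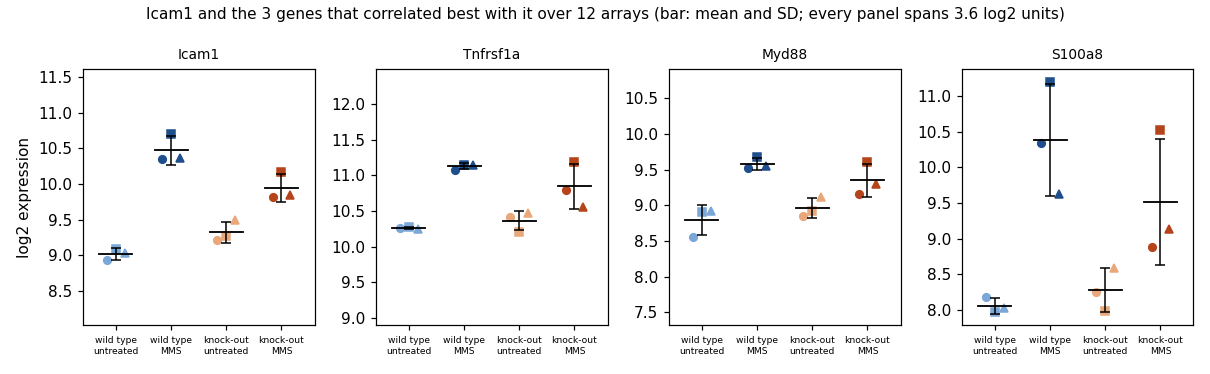
Log2 expression by group for Icam1 and the 3 genes with the highest correlation with it over 12 arrays, with the mean and SD of 3 animals. In all 4 genes the treated wild-type mean is the highest and the untreated wild-type mean the lowest (9.02 to 10.47 for Icam1, 8.06 to 10.39 for S100a8).

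Marker lists of other cell types were read on the same arrays, where 1.99% of all probe sets were called higher and 4.45% lower in wild type. In knock-out 1.51% were called either way. Of 12 listed neutrophil markers 10 were measured, with a mean log2 level of 5.24 to 5.52 in untreated and 5.60 to 6.15 in treated wild-type liver, and of 5.41 to 5.57 and 5.40 to 6.19 in knock-out liver. In wild type 2 of them rose, S100a9 by 2.62 ± 0.57 and S100a8 by 2.33 ± 0.44, and 8 were not called. Of the 10 markers 4 were positive and 6 negative there, with a median of -0.034. All 10 endothelial markers were measured, at 8.87 to 9.06 in untreated and 8.39 to 8.48 in treated wild-type liver, where 4 fell, and at 8.67 to 8.87 and 8.63 to 8.90 in knock-out liver, where none was called. Of 10 macrophage markers 8 were measured, at 10.010 to 10.586 and 10.004 to 10.448 in wild type and at 10.34 to 10.60 and 10.43 to 10.86 in knock-out, with 1 risen and 1 fallen in wild type. All 9 stellate cell markers were measured, at 9.37 to 10.22 in untreated and 8.67 to 9.08 in treated wild-type liver, where 2 fell, the collagens Col1a1 (-2.49 ± 0.34) and Col3a1 (-1.49 ± 0.25), and at 9.31 to 9.44 and 9.06 to 9.60 in knock-out liver, where none was called. Lymphocyte markers (9 of 10 measured) were at 6.39 to 6.56 in untreated and 5.84 to 5.95 in treated wild-type liver, where 2 fell, and at 6.52 to 6.85 and 6.25 to 6.53 in knock-out liver, where none was called and 8 of 9 were negative. Cholangiocyte markers (5 of 6 measured) were at 6.84 to 7.23 and 6.51 to 6.97 in wild type and at 6.66 to 6.82 and 6.96 to 7.48 in knock-out liver, where 1 rose, Krt19 (1.90 ± 0.40). The part of cell composition in the Icam1 and Bcl3 differences was not tested, and in whole liver fewer cells of a type and less RNA per cell cannot be told apart.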

How the data were processed

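The authors deposited log2 values computed with RMA, per the submitters' processing notes, from Trizol RNA. The log base was inferred from RMA's standard output and the values' range, and no RMA version is stated in the sources used here. No detection call came with the values.

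Symbols came from the platform annotation (20380 probe sets with 1 symbol, 691 with several, 1555 with none), and 20351 of these symbols were found in the RefSeq table. A total of 64 control probe sets were set aside. Differences were tested in limma 3.58.1 (R 4.3.3), fitting a mean for each group to all 12 arrays (8 residual degrees of freedom) and Benjamini-Hochberg adjustment over 22626 probe sets at 0.05, two-sided. The fit was tested on simulated data. The named genes were all members, then up to 8 called genes per comparison of the pathway lists, or the gene with the smallest p of a list, and not all of these are printed. The 3 most correlated genes were named for each called member. Members and lists were chosen with earlier results of these data known. Settings tried were a filter at a mean log2 of 6, 2 scalings, 2 variance models, weighted arrays, a block for animal number, averaged probe sets per gene and leaving out each array. The 5' to 3' covariate and the fit without both knock-out arrays numbered 3 were chosen after seeing the data.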

Additional observations from a re-analysis of the deposited data

Results flagged for a closer look

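Ccl20, a chemokine of the pathway list, had every treated array above every untreated one in wild type and every treated array below every untreated one in knock-out liver. The responses differed by -1.09 ± 0.20 on the log2 scale, which limma did not call (adjusted p = 0.0760). Its probe set was dim, with a mean of 5.27 (18.5th percentile). Tax1bp1, a cofactor of A20, showed the same opposite separation at a smaller size, with responses that differed by -0.45 ± 0.16 (adjusted p = 0.204 in limma). None of the 9 member genes showed it. The share of all probe sets with such an opposite separation was not counted.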

How the results depend on the processing

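The number of the 9 member genes called in wild type, 2 as reported, was 5 with array weights, 1 with a spread taken from the compared groups only and 1 to 2 when 1 array was left out. Array weights also raised the calls among the 72 other pathway genes, from 6 higher and 1 lower to 18 and 5 in wild type. In knock-out liver those calls went from 0 and 1 to 7 and 4. Shares of all probe sets called are not set beside these counts, so a change in them may not be particular to the members. Nfkbiz was called beside Icam1 and Bcl3 after quantile normalization, after median centring and with averaged probe sets. In knock-out liver the count of 0 became 1 (Icam1) with the filter at a mean log2 of 6, with a trended robust variance, with array weights and without both knock-out arrays numbered 3, and was 0 to 1 when 1 array was left out. The count for the mean of both genotypes, 2, was 1 with the 5' to 3' covariate and 1 to 3 when 1 array was left out, and Bcl3 kept that call in 2 of 12 such fits and lost it without both knock-out arrays numbered 3, where Nfkbie was called. For the difference of responses it was 1 (Icam1, adjusted p = 0.0296) with array weights. No called difference changed its sign. Deviations of same-numbered animals from their group means correlated at r from -0.475 to 0.403, and differently numbered animals were not compared. With the replicate block 2 members were called in wild type and 0 in knock-out, while the probe sets called in knock-out dropped from 341 to 19. Bcl3 in wild type had an adjusted p of 0.00957 in limma with it. That block changed no call of a member.

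Of 54 member differences 20, none of them called, changed sign under some setting. In the knock-out MMS response Rela was -0.075 after quantile normalization, -0.055 after median centring, -0.031 with array weights and -0.084 without both arrays numbered 3. With the 5' to 3' covariate Relb was -0.076, Nfkbie -0.15 and Bcl3 -0.019 there, Nfkbia was -0.049 after median centring, and Nfkbiz was 0.20 as the mean of its probe sets and 0.0031 without both arrays numbered 3. Nfkb2 was -0.0074 with array weights and -0.10 as the mean of its probe sets in wild type, -0.062 and -0.096 in the mean of both genotypes, and -0.033 and -0.044 between untreated genotypes, where it was -0.066 without both arrays numbered 3 and Tnfaip3 -0.041 with array weights. Between treated genotypes Relb was -0.031 after median centring and -0.16 with the covariate, Nfkbia -0.10 after median centring and -0.085 with array weights, Nfkbie -0.024, -0.11 and -0.26 after quantile normalization, median centring and with the covariate, and Nfkbiz 0.015 as the mean of its probe sets. In the difference of responses the mean of the probe sets was 0.0086 for Nfkb2 and 0.11 for Nfkbia, and Relb was 0.12 after quantile normalization, 0.036 with array weights and 0.055 without both arrays numbered 3. The cause of these turns was not tested.

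With 1 array left out, the knock-out MMS response ranged from -0.20 to 0.022 for Nfkb2, -0.059 to 0.10 for Rela, -0.040 to 0.11 for Nfkbia, -0.29 to 0.017 for Nfkbiz and -0.086 to 0.067 for Tnfaip3. Nfkb2 ranged from -0.028 to 0.24 in wild type, -0.049 to 0.084 in the mean of both genotypes and -0.066 to 0.064 between untreated genotypes, where Tnfaip3 ranged from -0.11 to 0.12. Between treated genotypes the ranges were -0.11 to 0.39 for Relb, -0.057 to 0.16 for Nfkbia and -0.13 to 0.29 for Nfkbie, and in the difference of responses -0.30 to 0.20 for Relb and -0.34 to 0.078 for Nfkbie. Having 3 arrays a group limits the precision of every value, and Tnfaip3, Relb and Ccl20 were dim.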
